A study of Homo sapiens with 2 samples.

Results

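The genes described here are the inhibitors of cyclin-dependent kinases CDKN1A, CDKN1B, CDKN1C, CDKN2C and CDKN2D, the D-type cyclins CCND1, CCND2 and CCND3, and the kinases CDK4 and CDK6. They were taken by gene symbol from the array's annotation, which paired 25 probe sets with 9 of the 10 genes, out of 19775 genes in all. CDKN2C had no probe set under its own symbol in the annotation used and was not analysed here. RNA came from HCT15, an established cell line from a human colorectal adenocarcinoma, kept in RPMI with fetal bovine serum. There were 2 cultures with 1 Affymetrix array each: cells given Cas9 and a guide RNA to ARID3B, a protein that binds AT-rich DNA, and are labelled an ARID3B knockout, and cells labelled control. What the control cells received, and whether the edited cells were a clone or a pool, was not stated in the sources used here. The comparison asks how the transcripts of the edited cells differed from those of the control.

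D-type cyclins bind and activate CDK4 and CDK6, which phosphorylate the retinoblastoma protein RB and its relatives. Phosphorylation frees E2F transcription factors, which switch on genes for DNA replication and for entry into S phase. INK4 inhibitors (the CDKN2 genes) bind CDK4 and CDK6 and keep D cyclins off them. Cip/Kip inhibitors (the CDKN1 genes) bind whole cyclin-kinase complexes, block those of CDK2 most strongly, and can also help D cyclins assemble with their kinases. In the intestinal epithelium D cyclins are made by the dividing cells of the crypt, and inhibitors gather as cells leave the cycle.

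Each probe set, a group of short probes against the same transcript, has a log2 value made by RMA, a method that corrects background, gives all arrays the same distribution and combines the probes. Where a gene had several probe sets, the brightest by the mean over both arrays stood for it. A gene entered the comparison if at least 1 of its values reached the floor of 4.59, the median of all probe sets other than controls. This left 12841 genes. Over all probe sets the array medians were 4.59 and 4.59. All differences are log2 values, knockout-labelled minus control. With 1 array a group, a test was not possible and there is no replicate check, and this number of arrays sets the precision. As a yardstick, the scaled median absolute deviation of differences among genes of similar expression ran from 0.255 to 0.437 and is called the spread.

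The label was checked on ARID3B itself, which was at 6.09 on the knockout-labelled array and 5.12 in the control and so differed by 0.97 against a spread of 0.344. It was thus higher, not lower, in its only probe set, and the array is called the knockout-labelled array because that transcript did not bear out the label. Editing need not lower a transcript, and why this one was higher was not tested. Where this probe set lies relative to the edited stretch was not analysed. Whether the labels were exchanged, which would reverse every direction below, was not tested. Of 12 markers of colonic epithelium 9 were above the floor, EPCAM, KRT8, KRT18 and KRT19 among them, while KRT20, CDH17 and LGALS4 were under it on both arrays. Of 8 measured markers of fibroblasts, endothelium and blood cells, 5 were under the floor on both arrays. Those above it, knockout-labelled value first, were COL1A1 at 7.12 and 6.87, PECAM1 at 5.73 and 5.55, and CD3E at 4.87 and 4.71. The poly-A spike-ins, RNAs of bacterial origin that are usually added ahead of labelling, have 24 probe sets, which differed by a mean of -1.19. Scaling on them adds 1.19 to every difference, so each direction below is relative to the rest of the array.

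Among the genes compared, 3 of the 4 measured inhibitors were at least 2-fold higher on the knockout-labelled array and the kinase CDK6 was at least 2-fold lower. CDKN1B was 2.20-fold higher, CDKN1C 2.43-fold and CDKN2D 2.43-fold, and CDK6 was 2.04-fold lower. The inhibitor CDKN1A, the cyclins CCND1 and CCND3 and the kinase CDK4 differed by less than the spread. The cyclin CCND2 was under the floor on both arrays. Of all genes compared, 1.05% were at least 2-fold higher and 3.79% at least 2-fold lower, so that 3 of 8 members higher and 1 of 8 lower can be read against those shares. The members had been chosen with earlier results of these arrays known, and a count over them carries no test.

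**Figure D1:**
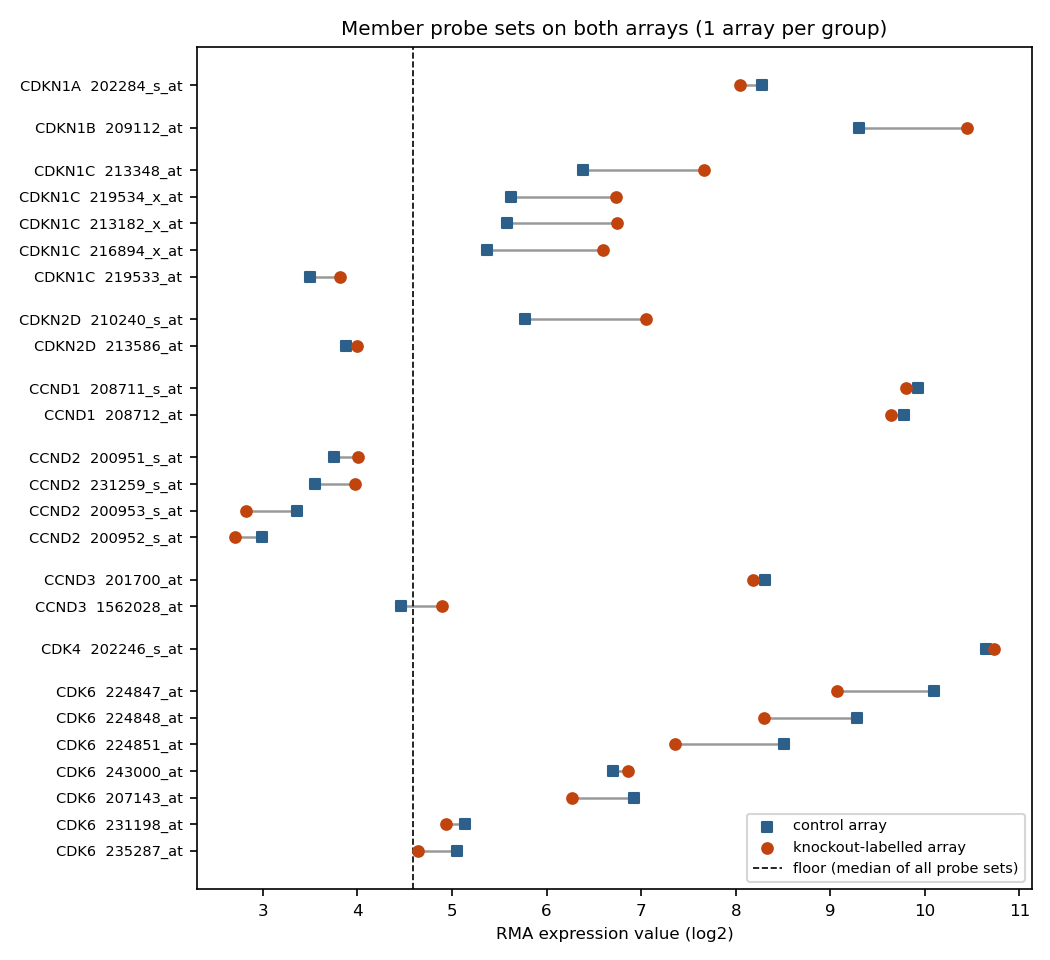
RMA log2 value (horizontal axis) of each of the 25 probe sets on the control array (squares) and the knockout-labelled array (circles), grouped by gene, with the floor of 4.59 as a dashed line. The 4 brighter CDKN1C probe sets lie 1.12 to 1.28 to the right on the knockout-labelled array, and the 3 brightest CDK6 probe sets lie to the left, with differences from -1.15 to -0.98.

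The 250 bases before the transcription start are shown for the members on either side of this pattern that have an entry in the RefSeq promoter table of build GRCh38.p14: CDKN1B and CDKN2D, which were higher, CDK6, which was lower, and CDK4, which was nearly level. The table holds windows for 6 of the measured members, and for each gene shown here the outermost start was taken. Letters are in lower case, with capitals for the GC box GGGCGG, the CCAAT box and the E box CACGTG on either strand.
CDKN1B, chr12:12717118-12717367, plus strand: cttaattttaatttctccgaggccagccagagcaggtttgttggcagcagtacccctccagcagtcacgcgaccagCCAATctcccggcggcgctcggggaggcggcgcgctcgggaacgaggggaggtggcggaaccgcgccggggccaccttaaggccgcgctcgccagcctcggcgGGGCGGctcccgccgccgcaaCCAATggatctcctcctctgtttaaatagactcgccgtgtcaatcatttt
CDKN2D, chr19:10568980-10569229, minus strand: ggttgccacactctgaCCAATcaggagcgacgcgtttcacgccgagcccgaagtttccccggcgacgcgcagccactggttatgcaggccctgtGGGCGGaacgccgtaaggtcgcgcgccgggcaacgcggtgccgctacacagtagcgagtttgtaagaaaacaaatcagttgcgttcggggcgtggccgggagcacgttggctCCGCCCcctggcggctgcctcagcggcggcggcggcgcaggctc
CDK6, chr7:92836574-92836823, minus strand: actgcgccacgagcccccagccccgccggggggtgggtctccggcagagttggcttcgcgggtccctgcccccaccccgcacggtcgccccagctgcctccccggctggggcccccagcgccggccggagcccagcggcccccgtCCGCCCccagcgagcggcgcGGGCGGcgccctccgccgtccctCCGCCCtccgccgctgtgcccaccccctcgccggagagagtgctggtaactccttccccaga
CDK4, chr12:57752311-57752560, minus strand: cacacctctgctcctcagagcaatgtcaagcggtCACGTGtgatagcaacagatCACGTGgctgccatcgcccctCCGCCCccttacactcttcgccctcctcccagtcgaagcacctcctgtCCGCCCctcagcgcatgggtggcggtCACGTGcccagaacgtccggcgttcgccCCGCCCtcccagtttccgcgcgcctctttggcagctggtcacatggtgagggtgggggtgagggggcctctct
The CDKN1B window held 2 CCAAT boxes and 1 GC box, and the CDKN2D window held 1 CCAAT box and 2 GC boxes. The CDK6 and CDK4 windows shown held no CCAAT box and 3 GC boxes each. The other CDK6 window, at a start that is not the outermost, held no CCAAT box and no GC box. CDK4 alone among the 9 windows of the 6 genes held E boxes, of which there were 3. The CDKN1A window held 4 GC boxes and no CCAAT box. Of the 3 windows of CCND3, which differed by only -0.13, 2 held a CCAAT box, but the outermost did not. Counted over all windows, these boxes thus did not mark the higher genes alone. Over all 35116 promoter windows of this length, 42.6% held a GC box, 32.0% a CCAAT box and 6.34% an E box, so that GC and CCAAT boxes are common anywhere. None of the members' windows held the E2F site in the 4 forms TTTGGCGC, TTTCCCGC, TTTCGCGC or TTTGCCGC, the forkhead site GTAAACA, the cAMP response element TGACGTCA or the CHR element TTTGAA, on either strand. Those were found in 2.79%, 2.98%, 1.65% and 13.3% of all windows. A match is only a run of letters, and a window without a match says nothing of the factor.

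CDKN1B, which encodes p27, an inhibitor that holds cells in a resting state and is removed by ubiquitination before S phase, had a value of 10.44 on the knockout-labelled array against 9.31 in the control. Its difference of 1.14 was 4.45 times the spread of 0.255 at its expression level. Of the genes compared, 98 (0.763%) had a higher difference. CDKN1B has a single probe set under its own symbol, so that no second measurement of the transcript was at hand. The difference stayed past 2-fold under every alternative processing, from 1.04 to 1.14 apart from the spike-in scaling. With 1 probe set, another floor, the mean of probe sets and leaving out suffixed probe sets could not alter it.

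CDKN1C encodes p57, an inhibitor expressed from the maternal copy of an imprinted gene. Its brightest probe set had a value of 7.67 on the knockout-labelled array and 6.39 in the control, a difference of 1.28 against a spread of 0.437. The 3 next probe sets, with the knockout-labelled value first in this and every later pair, were at 6.74 and 5.62, 6.75 and 5.58, and 6.60 and 5.37. All 4 were thus higher on the knockout-labelled array, with differences from 1.12 to 1.28 and a standard deviation of 0.070 between them. Those 3 have a suffix that marks probes able to match several transcripts, which the brightest does not. The fifth probe set, at 3.81 and 3.50, did not reach the floor on either array and gives no fold. Over the 1201 genes with 4 or more probe sets over the floor the median of this standard deviation was 0.245, and in 39.0% of them all differed in the same direction. With 64 linear units added to both arrays, which damps dim probe sets, CDKN1C differed by 0.85 and was no longer past 2-fold.

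CDKN2D encodes p19, an INK4 inhibitor of CDK4 and CDK6. It was at 7.05 on the knockout-labelled array and 5.77 in the control, a difference of 1.28 against a spread of 0.395. Only 65 genes (0.506%) had a higher difference. The second probe set of the gene was at 3.99 and 3.88, short of the floor, and does not bear on the first. When both were averaged the difference was 0.70, and with 64 linear units added it was 0.73, in each case short of 2-fold.

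CDKN1A encodes p21, the inhibitor best known as a target of p53. Unlike the other measured inhibitors it was not past 2-fold, with a value of 8.05 on the knockout-labelled array and 8.27 in the control. The difference of -0.22 was smaller than the spread of 0.388, and 53.7% of the genes compared differed by more in either direction. Besides the spike-in scaling, its difference ran from -0.32 to -0.18 over the alternatives. It too has only 1 probe set here.

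Of the D cyclins, CCND1 encodes cyclin D1, a growth factor and Wnt responsive cyclin. Its probe sets were at 9.80 and 9.64 on the knockout-labelled array and 9.92 and 9.78 in the control. Both were a little lower on the knockout-labelled array, with differences of -0.12 and -0.14, smaller than the spread of 0.255. CCND3, cyclin D3, was at 8.18 on the knockout-labelled array and 8.31 in the control, a difference of -0.13. A dimmer CCND3 probe set was at 4.90 and 4.46, the latter under the floor, which is at least 1.24-fold higher when set against the floor. The CCND3 probe sets therefore differed in direction, with a mean of 0.15. CCND2, cyclin D2, had 4 probe sets that all lay under the floor on both arrays, with 3.76 the highest value on the control array, and was not compared.

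CDK4 was at 10.73 on the knockout-labelled array and 10.65 in the control, a difference of 0.08 against a spread of 0.255, and of -0.01 when the arrays were scaled on ribosomal protein genes. Its partner kinase CDK6, which binds the same cyclins, was at 9.07 and 10.10, a difference of -1.03 against a spread of 0.366. The next probe sets of CDK6 were at 8.30 and 9.28 and at 7.36 and 8.52. These 3 brightest probe sets were all lower on the knockout-labelled array, with differences of -1.03, -0.98 and -1.15. Of the dimmer 4, 3 were also lower, with differences of -0.65, -0.42 and -0.20. The remaining probe set was at 6.87 on the knockout-labelled array and 6.70 in the control, a difference of 0.16 in the other direction. The standard deviation over the 7 differences was 0.486, against a median of 0.272 over 68 genes with 7 or more probe sets over the floor, of which 27.9% had all in the same direction. The mean of the 7 was -0.61, and with 64 linear units added the brightest gave -0.95, so that both fall short of 2-fold. Where the probe sets lie in the CDK6 transcripts was not analysed here.

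Over the probe sets themselves, 19 of the 25 were above the floor, 6 were at least 2-fold higher and 2 at least 2-fold lower. The same shares over all 23960 such probe sets were 1.34% and 4.02%. The 6 were the only probe set of CDKN1B, 4 of CDKN1C and 1 of CDKN2D, and the 2 were of CDK6. Probe sets of a gene read the same transcripts and are not replicates.

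**Figure D2:**
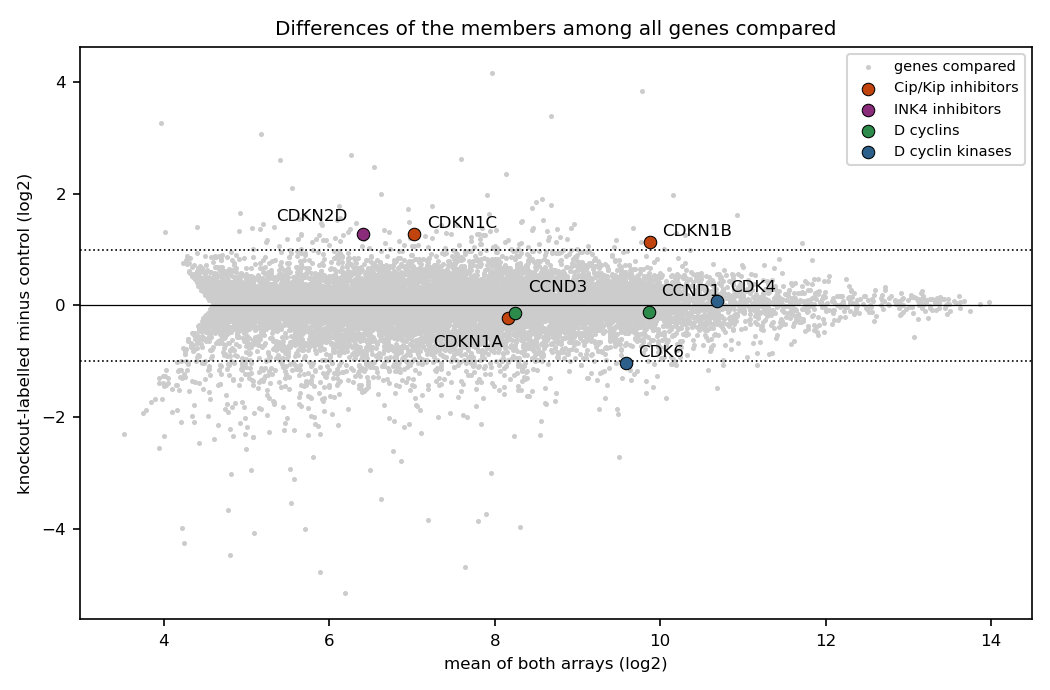
Difference, knockout-labelled minus control (log2, vertical axis), against the mean of both arrays (log2, horizontal axis) for the 12841 genes compared in grey and the 8 compared members in colour by role, with dotted lines at 2-fold. CDKN1B, CDKN1C and CDKN2D lie above the upper line at 1.14 to 1.28, CDK6 lies just below the lower line at -1.03, and the other 4 members lie between -0.22 and 0.08.

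The members did not move one way as a set. Of 8 compared, 4 were above 0, against 52.9% of all genes, and their median was -0.02 against 0.04 for all genes. In size they fell on both sides of 0.24, the median absolute difference of all genes, with 4 below it and the 4 past 2-fold above it. The differences between members are not moved by a shift of 1 array against the other. Relative to CDK6, CDKN1B was 4.48-fold higher on the knockout-labelled than on the control array, CDKN1C 4.94-fold and CDKN2D 4.95-fold, values that set the highest members against the lowest. With the mean of each gene's probe sets they were 3.35-fold, 3.09-fold and 2.48-fold. Relative to CDK4 the same inhibitors were 2.07-fold, 2.29-fold and 2.29-fold higher, and relative to CCND1 they were 2.39-fold, 2.64-fold and 2.65-fold higher. With the mean of probe sets CDKN2D was 1.53-fold higher relative to CDK4 and 1.78-fold relative to CCND1. In a bulk culture less RNA per cell and fewer cells in a given phase of the cycle cannot be told apart.

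The pathway around the members was described with 9 lists. Of all genes compared, 52.9% were above 0, 1.05% at least 2-fold higher and 3.79% at least 2-fold lower. The list counts below can be read against those shares and carry no test. Among other genes named as inhibitors, CDKN2A and CDKN2B were under the floor on both arrays. CDKN3, a phosphatase that acts on CDKs, differed by -0.24. Of 13 RB and E2F family genes, which stand directly downstream of the D cyclin kinases, none was past 2-fold and 9 were below 0, with a median of -0.21. E2F5 (-0.73), E2F3 (-0.66) and the E2F partner TFDP1 (-0.53) were lowest, and RBL2, the pocket protein p130, was highest (0.54). The MuvB complex represses cell cycle genes with p130 and activates them with MYB proteins and FOXM1. Of 8 listed genes of the complex and these activators, 2 were at least 2-fold higher. LIN52 was at 7.95 on the knockout-labelled array and 6.63 in the control, a difference of 1.32, and LIN37 at 7.23 and 6.11, a difference of 1.11. Both of these have 2 probe sets that were each higher, with means of 1.03 and 0.77. The other 6 lay between -0.07 and 0.19, with MYBL1 at 0.19 and FOXM1 at 0.15.

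Among 13 other cyclins, CDKs and CDC25 phosphatases 1 was at least 2-fold higher and 1 lower. CCNE2, a cyclin E that activates CDK2, was at 7.60 on the knockout-labelled array and 9.23 in the control, 3.09-fold lower, with both probe sets above the floor lower. The other cyclin E, CCNE1, differed by -0.74 in its only probe set above the floor. The mean over all its probe sets, which takes in those under the floor, was -0.14. CDC25C, a phosphatase that activates CDK1 at mitosis, differed by 1.06, or by 0.79 as the mean of its probe sets. MNAT1, a subunit of the CDK-activating kinase, differed by 0.61. The list median was 0.34, with 8 of 13 above 0.

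Genes that control the amount of the inhibitors and D cyclins were also set beside them. Of 14 ubiquitin ligase subunits and cofactors that act on p27, p21, D cyclins or, for FBXW7, cyclin E, none was past 2-fold. Their median was -0.04. SKP2, the F-box protein that marks p27 for destruction, was at 9.49 on the knockout-labelled array and 10.09 in the control, a difference of -0.60 with all 3 probe sets lower. Its cofactor CKS1B differed by 0.40 and the scaffold CUL1 by -0.56, with CUL1 probe sets in both directions. FBXW7, an F-box protein for cyclin E, differed by 0.83, or by 0.28 as the mean of its probe sets, with 3 of 4 higher. Of 14 measured transcription regulators of the inhibitor genes 11 were above 0, against 52.9% of all genes, with a median of 0.27. CEBPA was at 5.41 and 6.80, 2.61-fold lower, while CEBPB differed by 0.77, HES1 by 0.61 and SP1 by 0.55, the last with a mean of 0.10 over its probe sets. These are transcript levels, and protein amounts were not measured.

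CDKN1A is commonly read with other p53 targets, of which 17 were compared. They had a median of -0.0012, with 8 above 0, 1 at least 2-fold higher and 1 lower. GADD45A, also induced by other stresses, was at 10.37 on the knockout-labelled array and 8.98 in the control, a difference of 1.39. TP53I3 was 2.56-fold lower (-1.35), TIGAR differed by -0.84 and AEN by -0.76. CDKN1C lies in an imprinted domain, of which 7 other listed genes were compared. In that domain 6 of the 7 differed by no more than 0.23 in either direction, KCNQ1OT1, the antisense RNA of the imprinting centre, at 0.23, CD81 at -0.11 and PHLDA2 at -0.07 among them. The exception was ASCL2, a Wnt-driven regulator of stem cells in the crypt, which was at 5.27 and 9.11, 14.3-fold lower. Thus CDKN1C and ASCL2 differed in opposite directions.

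Of 12 proliferation markers 6 were above 0 and 6 below, none was past 2-fold, and the median was 0.09. The mitotic kinases BUB1 (0.67) and AURKA (0.51) were highest, and MCM3 (-0.69) and MCM6 (-0.52), subunits of the replicative helicase, were lowest. The part of cell cycle phase in the members' differences was not tested.

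**Figure D3:**
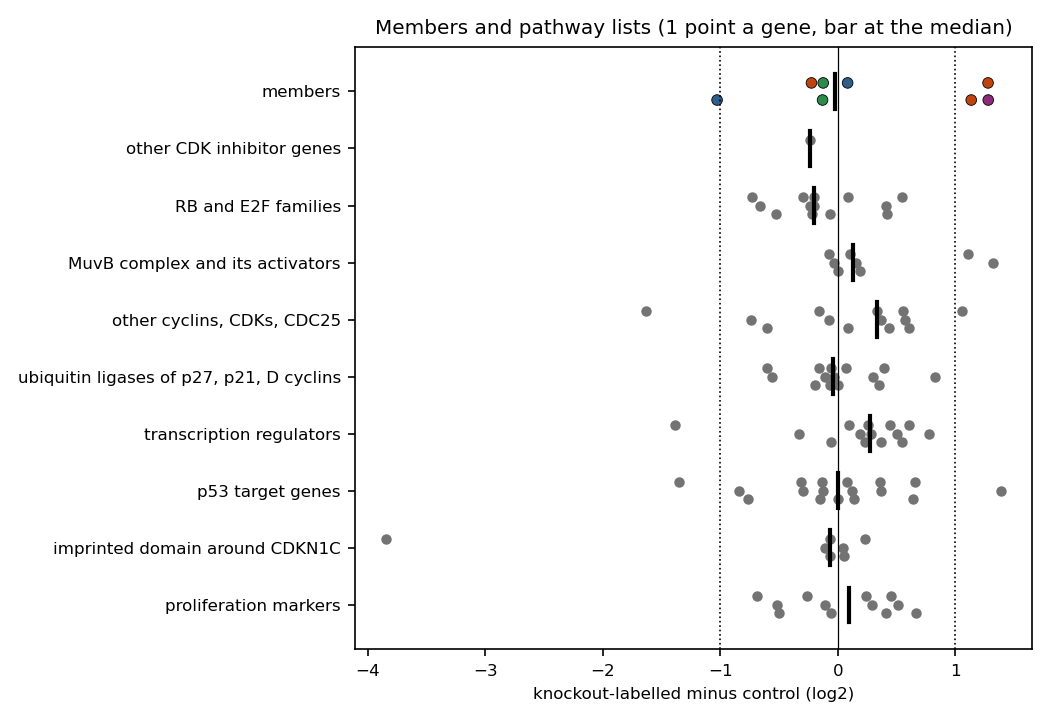
Difference, knockout-labelled minus control (log2, horizontal axis), of the 8 compared members, coloured by role as inhibitors, D cyclins and kinases, and of the compared genes of the 9 pathway lists in grey, with a bar at each median and dotted lines at 2-fold. Outside the members, the points past the upper line are GADD45A at 1.39, LIN52 at 1.32, LIN37 at 1.11 and CDC25C at 1.06. Those past the lower line are ASCL2 at -3.84, CCNE2 at -1.63, CEBPA at -1.38 and TP53I3 at -1.35. Of all genes compared, 1.05% were at least 2-fold higher and 3.79% at least 2-fold lower.

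**Figure D4:**
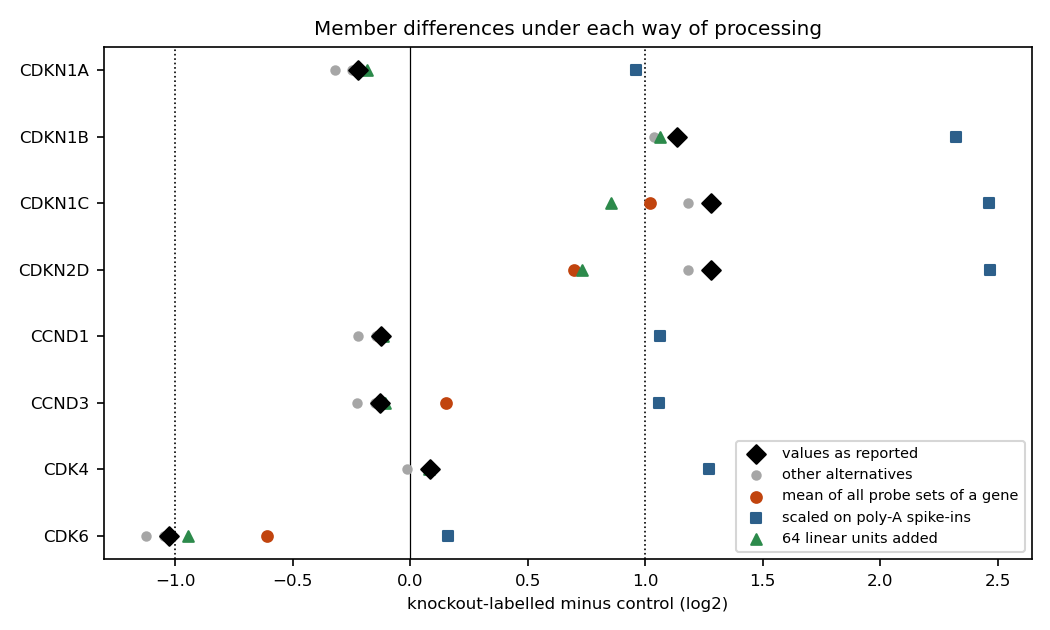
Difference, knockout-labelled minus control (log2, horizontal axis), of each compared member as reported (diamonds) and under the alternative ways of processing, with dotted lines at 2-fold. Scaling on the spike-ins moves all members by 1.19 to the right, and averaging probe sets moves CDKN2D to 0.70 and CDK6 to -0.61.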

How the data were processed

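Total RNA of the 2 HCT15 cultures was hybridised to 1 array each. The values are log2 expression made by the authors with RMA (version not stated), per the submitters' processing notes. Whether other arrays were part of that normalisation was not stated in the sources used here. Quantile normalisation, a step of RMA, removes differences in total RNA, and RMA compresses differences of dim probe sets. Of 54613 probe sets other than controls, 41091 had 1 gene symbol in the platform annotation and were used, 1801 had several and 11721 none. The 9 member symbols matched RefSeq (GRCh38.p14) by Entrez identifier. Differences, the floor (percentile 50) and the spread (scaled median absolute deviation in 10 bins of mean expression) were computed with pandas 2.3.3 and numpy 2.4.6. The procedure was tested on simulated data, with planted differences larger than those of the members and only in bright genes. That test does not cover genes as dim as CDKN1C and CDKN2D.

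The genes named were all members, ARID3B, and for each pathway list up to 4 genes of largest difference and any past 2-fold. Cell type markers, CDKN2A and CDKN2B are outside that rule and were named after their values were seen. The members, lists and tests were chosen with earlier results of these data known. Alternatives were a floor at percentile 75 or none, the mean of probe sets, leaving out probe sets whose suffix marks shared sequence, a loess trend removed (span 0.3, statsmodels 0.14.6), centring on medians, scaling on ribosomal protein genes or spike-ins, 64 linear units added, and thresholds of 1.5-fold and 3-fold.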

Additional observations from a re-analysis of the deposited data

How the results depend on the processing

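The count of 3 members at least 2-fold higher and 1 lower held with no floor and with the floor at percentile 75. It also held with the intensity trend removed, with centred medians and with ribosomal protein scaling. Under those settings the shares of all genes compared were 0.713% to 1.33% higher and 2.61% to 4.74% lower. At 1.5-fold the counts were again 3 and 1, where 5.83% of all genes were higher and 10.5% lower. As the mean of probe sets 2 members were higher and 0 lower, against 0.723% and 2.87% of all genes. With 64 linear units added 1 was higher, CDKN1B, and 0 were lower, against 0.366% and 0.927%. At 3-fold 0 were higher and 0 lower, against 0.195% and 1.04%. Scaled on the spike-ins, 6 were higher and 0 lower, where 71.2% of all genes were higher, the median of the members was 1.17 against 1.22 for all genes, and CDK6 was at 0.16, the only called member to change sign. Without probe sets whose suffix marks shared sequence, CDKN1A, CDKN2D and CDK4 had none left above the floor, so that 5 members were compared. Of these, 2 were higher (CDKN1B and CDKN1C) and 1 was lower (CDK6), against 1.198% and 4.49% of all genes. Of 69 member values under alternatives, 58 moved by less than the spread. That number rests largely on the settings chosen and is no measure of stability. A changed floor cannot move a difference. The shifts of 0.0016 from centring and -0.097 from ribosomal protein scaling are smaller than any spread, and the spike-in shift of 1.19 is larger than any. No paired analysis was possible because each group has 1 array. No replicate could be left out.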
